A study of Mus musculus with 16 samples.

Results

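The unstimulated day 5 myotubes of this series are the control group of a study of electrical pulse stimulation in C2C12, a mouse myoblast cell line whose cells fuse in culture into contractile fibres. The members were chosen by their labels: they are the 4 libraries of cells that received no stimulation, of 8 libraries in all, and each library was deposited as 2 sequencing lanes (8 of 16 GEO samples). Cells of passage 4 to 8 were grown with 10% fetal bovine serum in medium with 4.5 g/L of glucose. Full confluence was followed by 5 days in 2% horse serum, with daily renewal of the medium. No gene was altered and no agent was added. The sources used here do not give whether the control wells held electrodes. Separate cultures for the 4 libraries are not stated in the labels, so the spread between them may be technical. The stimulated libraries are not compared here, and all levels below describe cells at rest.

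Myoblasts leave the cell cycle when growth factors are withdrawn. Transcription factors of the MyoD family then act with MEF2 factors and with E-proteins on short DNA motifs to switch on muscle genes, and membrane proteins of the myomaker type let the cells fuse. In the animal, the first fibres carry embryonic and cardiac-type members of the contractile families, and these are exchanged for adult fast or slow members after innervation and birth. C2C12 cells pass through the early part of that course without nerve, tendon or blood supply, and a culture always holds some unfused cells beside the myotubes.

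Levels are given as FPKM, fragments per kilobase of transcript per M fragments in the library (M, mega), a unit that allows genes of different length to be compared. The libraries of control replicates 1, 2, 3 and 4 held 18.6, 0.354, 12.6 and 20.7 M fragments. For a gene with no fragment, the upper limit was set at 3 fragments, which equals 0.145 to 0.238 per M fragments in the 3 deep libraries and 8.46 in replicate 2. Replicate 2 therefore served only as a check: means ± SD are over replicates 1, 3 and 4 (n = 3), and where 4 values are listed they stand in the order of replicates 1 to 4. Such limits cover counting error only. Across 10839 protein-coding genes, log2 FPKM of the deep libraries correlated at 0.973 to 0.985, and each of them correlated with replicate 2 at 0.80 to 0.82. These correlations are across genes, which are not independent replicates. In bulk RNA, fewer cells of a type and less RNA per cell cannot be told apart, and this holds for every level below.

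A gene was called detected when it had an FPKM of 1 or more in each deep library. Of 48383 identifiers with an estimate, 11586 (23.9%) were detected, and of 21664 protein-coding genes 10552 (48.7%). The median over all protein-coding genes was 1.01 FPKM, and over the detected ones 11.5 FPKM. Another 6746 protein-coding genes had no fragment in any deep library. Detection of any gene list is read against these shares.

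The 6 genes used as markers of the myotubes were all detected. Myog (myogenin, the MyoD-family factor of terminal differentiation, chr1:134289989-134292548, mm10) stood at 542, 858, 542 and 453 FPKM, a mean of 512 ± 51.3. Mef2c, its partner factor, stood at 189, 138, 232 and 220 FPKM (214 ± 22). Myh3, the embryonic myosin heavy chain, stood at 652, 765, 617 and 567 FPKM (612 ± 42.6). These 3 genes differed little between the deep libraries, and the shallow library lay above them for Myog and Myh3 and below them for Mef2c. Chrna1, the alpha subunit of the muscle acetylcholine receptor (chr2:73563215-73580338), stood at 582, 515, 609 and 452 FPKM (548 ± 83.7). H19 and Igf2, the neighbouring imprinted genes of chromosome 7, varied more. H19, a non-coding RNA, stood at 4448, 11063, 6699 and 5954 FPKM, and Igf2, a growth factor that promotes differentiation, at 28.7, 127, 64.5 and 50.8 FPKM. For both genes replicate 1 was the lowest library and replicate 2 the highest. All 6 markers were thus present in every library. The series holds no undifferentiated cells for comparison, so this presence does not test the label of differentiated myotubes.

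The protein-coding transcriptome was led by contractile genes. Acta1, skeletal alpha-actin, was first at 3135, 3302, 3425 and 2627 FPKM (3062 ± 404). Mylpf, the fast regulatory myosin light chain, followed at 2769, 2683, 2759 and 2429 FPKM (2653 ± 194). Tnnc1, the slow and cardiac troponin C, came next at 2571, 2098, 2723 and 2104 FPKM (2466 ± 323). All 4 libraries gave these 3 genes in the same order, although the means ± SD of neighbours overlapped. Lgals1, a secreted galectin, stood at 2239 ± 459 FPKM, Eef1a1, the common translation elongation factor, at 2049 ± 487 FPKM, and S100a4, a calcium-binding protein of motile cells, at 1446 ± 288 FPKM. Tnnc2, the fast troponin C, had 1418 ± 196 FPKM, the intermediate filament gene Des 1379 ± 236 FPKM and the cytoplasmic actin gene Actb 1324 ± 427 FPKM. The next were Myl4, the embryonic and atrial light chain, with 1248 ± 116 FPKM, and Tnni1, slow troponin I, with 1152 ± 157 FPKM. Tpm2, a tropomyosin, had 1150 ± 162 FPKM, and the smooth muscle actin gene Acta2 had 1080 ± 94.0 FPKM. Acta1 thus led a set in which skeletal, cardiac, smooth muscle and cytoplasmic actins were all within the 30 most abundant genes.

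**Figure D1:**
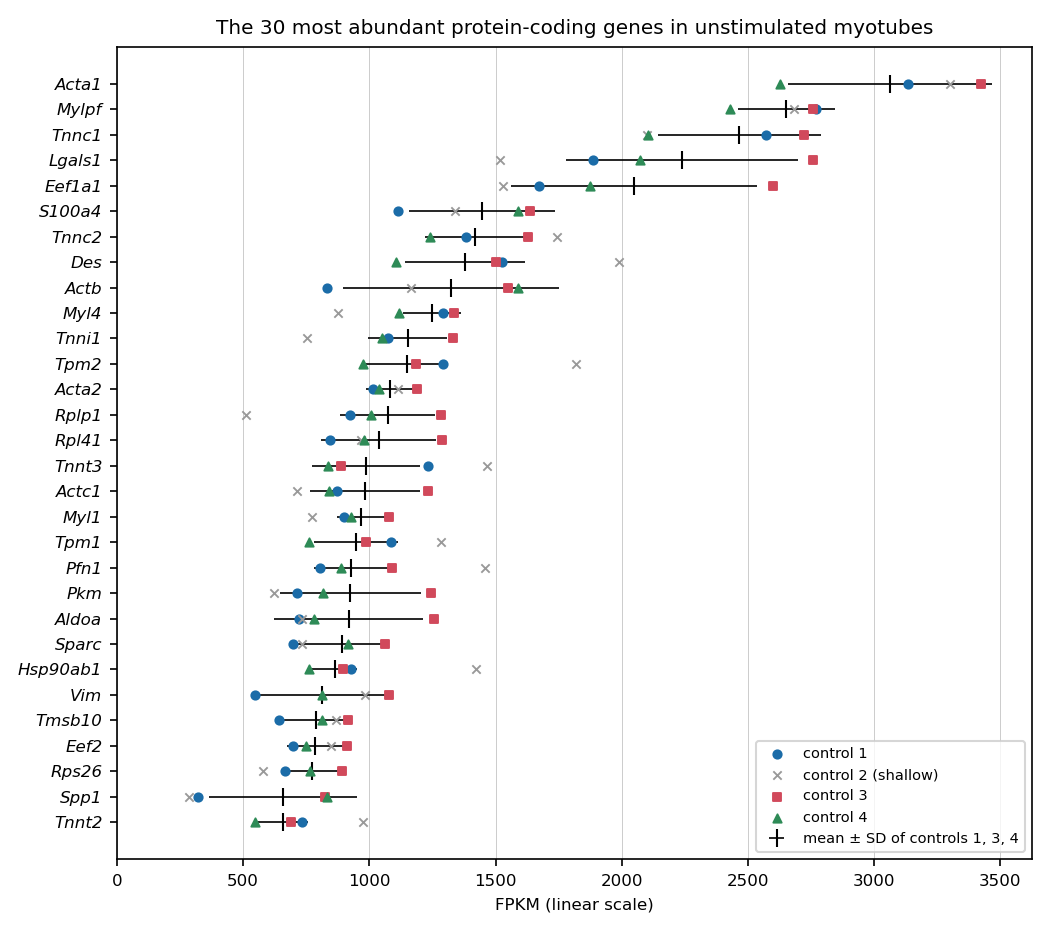
FPKM (linear axis) of the 30 most abundant protein-coding genes, ranked by their mean, with 1 point per control library and a bar for the mean ± SD of the 3 deep libraries. Acta1 at 3062, Mylpf at 2653 and Tnnc1 at 2466 FPKM lead, and the shallow library (crosses) falls within or near the range of the others for most genes.

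The other genes among the first 30 were of few kinds. Contractile genes were Tnnt3 (986 FPKM), Actc1 (982 FPKM), Myl1 (968 FPKM), Tpm1 (945 FPKM) and Tnnt2 (657 FPKM). Translation was represented by Rplp1 (1072 FPKM), Rpl41 (1037 FPKM), Eef2 (786 FPKM) and Rps26 (775 FPKM). Glycolysis was represented by Pkm (924 FPKM) and Aldoa (919 FPKM), which make pyruvate and split fructose bisphosphate. The actin-binding genes Pfn1 (929 FPKM) and Tmsb10 (789 FPKM), the filament gene Vim (813 FPKM), the chaperone gene Hsp90ab1 (862 FPKM) and the secreted matrix proteins Sparc (892 FPKM) and Spp1 (658 FPKM) made up the rest.

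The protein-coding signal was spread over many genes. The 10 most abundant protein-coding genes held 6.16% of the summed FPKM of protein-coding genes, the first 30 held 12.0%, the first 100 held 22.3% ± 0.845, and the first 1000 held 55.6%. In replicates 1 to 4 the share of the first 100 was 21.8, 22.9, 23.3 and 21.9%. There were 15 protein-coding genes at 1000 FPKM or more, 503 at 100 or more and 5753 at 10 or more. Acta1 at rank 1 had 9.56 times the FPKM of rank 100, which stood at 320 FPKM.

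A list of 72 contractile and Z-disc genes held 8.36% ± 0.864 of the protein-coding FPKM, and 13 of the 30 most abundant genes belonged to it. Cytoplasmic ribosomal proteins (83 genes) held 3.61% ± 0.432, glycolytic enzymes (19 genes) 1.31% ± 0.24, histone genes (65 genes) 0.675% ± 0.292 and collagens (44 genes) 0.416% ± 0.0726. The contractile share was 9.30, 9.22, 8.17 and 7.6% in replicates 1 to 4, whereas the share of ribosomal proteins was lowest in replicates 1 and 2, at 3.11 and 2.77%. Values for ribosomal protein genes, Eef1a1, Actb and Actg1 are uncertain, because many processed copies of these genes lie in the genome and the sources used here do not give how reads that match several places were treated.

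Muscle regulators formed the next layer. Of 19 myogenic bHLH, MEF2 and partner factors, 17 were detected, with a median of 35.7 FPKM. Myod1, the founding factor of the family, stood at 77.1, 75.4, 85.6 and 63.8 FPKM (75.5 ± 11), and Myog was higher in every library. Myf5, which marks myoblasts, stood at 5.78, 11.1, 12.7 and 7.90 FPKM. Myf6 (MRF4), the factor of mature fibres, stood at 0.550, 0, 3.25 and 2.18 FPKM and was not called detected. Among the MEF2 genes, Mef2c was highest, Mef2d (79.0 ± 12.6 FPKM) and Mef2a (77.3 ± 9.68 FPKM) were alike, and Mef2b was near 0 at 0.0831 FPKM. Per kilobase of annotated exon per M fragments, Mef2c had 70.1 ± 7.10 fragments, Mef2d 62.1 ± 6.04 and Mef2a 26.4 ± 3.80. Mef2d and Mef2a were thus alike in FPKM only. Partner factors lay in between. Tead4, a factor of the Hippo pathway, had 38.9 ± 1.45 FPKM and the E-protein gene Tcf12 35 ± 3.20 FPKM. The RNA-binding proteins Rbm24 (72.9 FPKM) and Rbm38 (61.5 FPKM), which act on muscle transcripts, were at the level of Myod1.

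Genes of muscle progenitors were mostly present. Of 12 such genes 10 were detected (83.3%, against 48.7% of protein-coding genes). The median over the 12 was 11 FPKM, against 1.01 FPKM over all protein-coding genes, and 6 had 10 FPKM or more. Pax7, the satellite cell factor, stood at 1.56, 4.07, 5.67 and 4.03 FPKM, lowest in replicate 1, and Pax3, its paralogue of the embryo, had 1 fragment in the 3 deep libraries together. Sdc4, a cell surface proteoglycan, had 79.5 ± 10.4 FPKM and Spry1, a brake on growth factor signals, 41.0 ± 1.72 FPKM. Of 16 inhibitors of myogenic factors 11 were detected. The highest was Hes6 at 120 ± 7.21 FPKM, a member of the Hes family that favours rather than blocks differentiation, ahead of Bhlhe40 at 89.6 ± 9.11 FPKM and Hes1 at 49.4 ± 6.43 FPKM. The Id proteins, which bind and hold off E-proteins, stood at 15 (Id1), 19.1 (Id2) and 8.59 (Id3) FPKM, while Id4 (0.110 FPKM) and Twist1 (0.00726 FPKM) were below detection.

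The fusion genes were high. Mymk (myomaker) stood at 550, 443, 602 and 469 FPKM (541 ± 67.2), close to the level of Myog. Mymx (myomixer), its small partner, stood at 69.2, 42.9, 93.9 and 88.6 FPKM (83.9 ± 13). The deep libraries differed by less than the gap between these 2 genes. Of 22 fusion genes with an estimate 18 were detected, with a median of 53.1 FPKM, among them Cd81 (484 ± 98.0 FPKM), Cd9 (161 ± 39.9 FPKM), Tmem182 (172 ± 6.97 FPKM), Cdh15 (M-cadherin, 123 ± 17.8 FPKM) and Cav3 (98.4 ± 4.24 FPKM). Adgrb3 and Nphs1 had no fragment.

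Genes of cell cycle exit and of cell division were present together. Cdkn1a (p21), the cyclin kinase inhibitor that Myod1 induces, stood at 327, 373, 272 and 307 FPKM (302 ± 28.1), and Ccnd3, the cyclin that stays in muscle cells after exit, at 134, 113, 167 and 144 FPKM (149 ± 16.9). Rb1, the retinoblastoma gene, had 50.9 ± 2.66 FPKM, and Ccnd1, the cyclin of growing cells, 10.0 ± 2.80 FPKM. Cdkn2a and Cdkn2b, the neighbouring inhibitor genes on chromosome 4, had no fragment in any library. Mtap, next to them, had 17.7 ± 2.83 FPKM, and Dmrta1, on the other side, had none. All 24 cell division genes were detected, with a median of 7.58 FPKM. Mki67, the proliferation marker, stood at 9.62, 12.6, 12.6 and 21.8 FPKM and Top2a, the mitotic topoisomerase, at 23.4, 35.2, 27 and 43.4 FPKM, both highest in replicate 4. The highest was Rrm2, which makes deoxynucleotides, at 55.6, 53.5, 42.8 and 54.1 FPKM. The share of unfused or dividing cells in the cultures was not measured.

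Within the contractile families, embryonic and adult members stood side by side. Of the sarcomeric myosin heavy chains, Myh3 held 49.1% ± 1.77 of the family's FPKM and was first in all 4 libraries. Myh1, the adult fast IIx chain, was next at 555, 258, 402 and 348 FPKM (435 ± 108) and held 34.5% ± 4.96. Adult fast IIb (Myh4) stood at 67.5 ± 17.7 FPKM and perinatal Myh8 at 65.4 ± 12.4 FPKM, and these neighbours were not in the same order in every library. Slow Myh7 stood at 39.6, 106, 41.9 and 39.2 FPKM, and fast IIa Myh2 at 24.3, 11.4, 17.9 and 15.6 FPKM. The cardiac chain Myh6 had 6.35 ± 0.532 FPKM, Myh7b 4.47 ± 0.933 FPKM, the eye muscle chain Myh13 0.0785 FPKM, and Myh15 no fragment. Of the non-sarcomeric chains, Myh9 held 93.4%.

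The light chains showed a similar mix. Among essential light chains, Myl4 at 1292, 874, 1336 and 1117 FPKM was above adult fast Myl1 at 900, 774, 1078 and 926 FPKM in every library, and slow Myl3 was at 0.581 ± 0.435 FPKM. Of the regulatory chains with an estimate, Mylpf held 94.9% ± 0.339. Slow and ventricular Myl2 had 95.4 ± 24.0 FPKM, and atrial Myl7 had no fragment. Myl12a and Myl12b, the non-muscle chains, had no estimate and are not in that share.

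All 3 troponin T genes were abundant. Fast Tnnt3 stood at 1231, 1467, 888 and 838 FPKM, cardiac Tnnt2 at 735, 974, 690 and 547 FPKM and slow Tnnt1 at 557, 956, 515 and 434 FPKM, in the same order in each deep library. Slow Tnni1 (1072, 751, 1333 and 1052 FPKM) was above fast Tnni2 (581, 727, 666 and 475 FPKM) in every library, and cardiac Tnni3 had 2.71 ± 0.969 FPKM. Slow Tnnc1 held 63.5% ± 1.33 of troponin C. Counted instead as fragments per annotated exon length, Tnni2 and Myl1 came out above Tnni1 and Myl4. On that scale Tnnt1 (411 ± 25.5 per kilobase per M fragments) also came out above Tnnt2 (218 ± 5.68). The order within these pairs therefore depends on the effective length that the authors' software used.

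**Figure D2:**
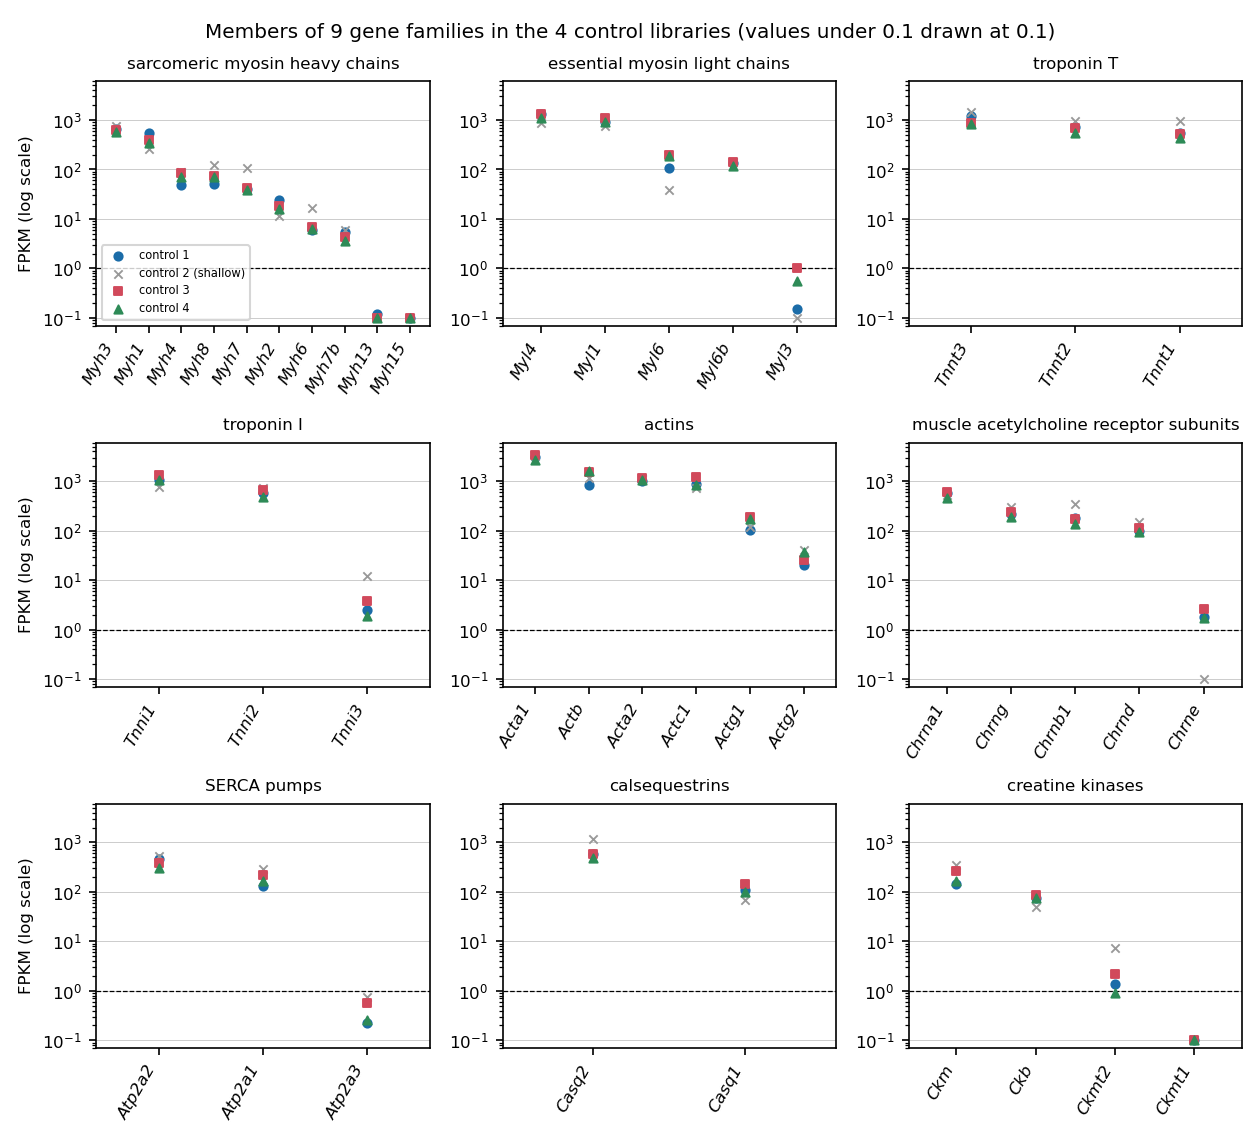
FPKM (log axes) of the members of 9 families, ordered by their mean, with 1 point per control library and a dashed line at the detection level of 1 FPKM. Myh3 and Myh1 stand apart from the other sarcomeric heavy chains, the 3 troponin T genes lie close together, and Chrne lies far below the other receptor subunits.

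Thin filament and Z-disc genes followed. Tpm2 held 47.6% ± 1.5 of the tropomyosins and Tpm1 39.0% ± 2.54. Actc1, the cardiac actin that skeletal muscle carries before birth, stood at 871, 714, 1233 and 842 FPKM, below Acta1 in each library. Actn3, the alpha-actinin of fast fibres, had 211 ± 40.3 FPKM and was above non-muscle Actn1 (56.1 ± 1.39 FPKM) and Actn2 (31.0 ± 5.75 FPKM). Myoz2, the calsarcin of slow fibres and heart, stood at 200, 159, 194 and 156 FPKM and held 99% of the myozenins, while Myoz1, the fast member, had 1.74 ± 0.256 FPKM. Mybph, a small myosin-binding protein, stood at 640, 479, 680 and 529 FPKM and held 94.1% ± 1.29 of its family. The larger proteins Mybpc2 (22.1 ± 3.09 FPKM) and Mybpc1 (16.1 ± 7.66 FPKM) were far lower and changed places between libraries. Myom2 (239 ± 37.7 FPKM) was above Myom3 (60.7 ± 5.98 FPKM), and Myom1 had no estimate. Of 30 assembly and Z-disc genes with an estimate 29 were detected, with a median of 51.5 FPKM. Neb, the giant thin filament ruler, had 149 ± 13.2 FPKM, and Nebl, its cardiac relative, was below detection at 0.469 FPKM. Klhl41, a nebulin-binding protein, had 234 ± 8.22 FPKM, and Ankrd1, a strain-responsive titin-binding protein, stood at 612, 820, 337 and 312 FPKM, higher in replicates 1 and 2. Xirp2, which binds actin at cell junctions, stood at 20.7, 5.02, 3.25 and 3.75 FPKM and was high in replicate 1 only.

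Promoter sequence was searched for 4 motifs of muscle and general promoters. The RefSeq-based table (build GRCm38.p6) gave 250 bases before the annotated start for 46 of the 58 contractile and Z-disc genes with 10 FPKM or more and for 16521 genes in all. The E-box CAGCTG, a form that MyoD-family factors bind, is its own reverse complement. It occurred in 20 of the 46 promoters (43.5%), against 11.9% of all promoters and 4 of 63 ribosomal protein promoters (6.35%). The MEF2 box, searched on both strands, occurred in 17.4% against 2.75%. The CArG box of serum response factor occurred in 10.9% against 1.36%, and TATAAA in 28.3% against 11.9%. These are counts of letters, not of bound sites, and the motifs searched did not overlap in the promoters printed. Chrna1 and Acta1 are shown as a receptor and a contractile gene from among the most abundant. The Chrna1 promoter (chr2:73580339-73580588, minus strand) has CAGCTG starting at positions -92 and -44 from the start site, in capitals. The Acta1 promoter (chr8:123894776-123895025, minus strand) has CAGCTG at -221, a CArG box at -73 and TATAAA at -7, in capitals. Other genes high in their lists had no exact match to any of the 4 motifs in this window, among them Tnnc1 and Myog. The MEF2 box was searched as C or T, then TA, 4 letters A or T, TA, and A or G. The Myog window holds ctatatttat, which departs from that pattern only in its last base. The start in the table lay within 250 bases of the GENCODE gene start for 34 of the 46 genes, with 24 bases between them at Acta1 and 2718 at Mylpf, which was counted among those with CAGCTG.
Chrna1 promoter: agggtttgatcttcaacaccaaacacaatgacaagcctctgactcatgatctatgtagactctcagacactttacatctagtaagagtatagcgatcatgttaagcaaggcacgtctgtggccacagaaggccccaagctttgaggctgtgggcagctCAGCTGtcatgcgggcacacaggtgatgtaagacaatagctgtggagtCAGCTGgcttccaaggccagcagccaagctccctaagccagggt
Acta1 promoter: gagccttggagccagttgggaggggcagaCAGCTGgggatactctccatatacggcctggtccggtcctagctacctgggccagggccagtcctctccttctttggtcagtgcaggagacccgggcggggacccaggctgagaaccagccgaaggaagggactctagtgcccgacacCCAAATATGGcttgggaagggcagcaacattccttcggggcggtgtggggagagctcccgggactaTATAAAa

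Receptor and junction genes were expressed without a nerve. All 15 neuromuscular junction genes were detected, with a median of 62.5 FPKM. Chrna1 held 53.2% ± 0.990 of the muscle receptor subunits. The fetal gamma subunit gene Chrng stood at 222, 300, 236 and 187 FPKM (215 ± 25.4), whereas the adult epsilon subunit gene Chrne stood at 1.80, 0, 2.66 and 1.74 FPKM (2.07 ± 0.514). On the scale of FPKM with 0.1 added, the fetal subunit was 100.4 times higher over the deep libraries, and it was higher in all 4. Chrnb1 had 161 ± 23.6 FPKM and Chrnd 102 ± 11.1 FPKM. The clustering machinery was present as Musk, the receptor kinase (51.2 ± 8.84 FPKM), Rapsn, the scaffold (77.7 ± 20.3 FPKM), Lrp4, the agrin receptor (62.5 ± 14 FPKM), and Dok7 (21.4 ± 1.48 FPKM). None of 11 neuronal receptor subunits was detected, and 8 of them had no fragment in the deep libraries.

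Of the channels of the adult fibre membrane, the sodium channel was present and the chloride channel was nearly silent. Scn4a, the sodium channel of adult muscle, stood at 16.9, 16.9, 21.2 and 16.4 FPKM, with little difference between the libraries. Clcn1, the chloride channel of adult fibres, had 20, 0, 16 and 13 fragments and a mean of 0.247 FPKM. Cacna1s, the voltage sensor of skeletal muscle, had 78.0 ± 8.14 FPKM and held all but a trace of its family, and the cardiac gene Cacna1c had 0.00844 FPKM.

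The genes of the triad, where that sensor meets the calcium store, were mostly high. Of 23 triad genes with an estimate 22 were detected, with a median of 48.9 FPKM. Casq2, the cardiac and slow calsequestrin, stood at 570, 1159, 576 and 476 FPKM (541 ± 56.2), above the fast Casq1 at 107, 68.6, 141 and 101 FPKM (117 ± 21.5). The calcium pump gene Atp2a2 (384 ± 83.9 FPKM) was above adult fast Atp2a1 (172 ± 44.3 FPKM) in each library. The small pump inhibitors sarcolipin (Sln) and phospholamban (Pln) had no fragment in any library, and myoregulin (Mrln) had 7.61 ± 2.5 FPKM. Bin1, which shapes the tubule membrane, had 394 ± 62.2 FPKM, Srl (sarcalumenin) 265 ± 12.4 FPKM and Jph2, which ties the membranes together, 80.4 ± 8.89 FPKM. Ryr1, the release channel, had a failed FPKM estimate in each library, so it is given from its 25263, 356, 14018 and 24977 fragments: 56.1 ± 5.76 fragments per kilobase of annotated exon per M fragments. On that same scale the immature channel Ryr3 had 3.72 ± 0.403 and the cardiac channel Ryr2 had 1 fragment in all.

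Metabolic enzymes split by pathway. In glycolysis the muscle members were mostly ahead. Aldoa held 99.6% of the aldolases, Ldha (498 ± 160 FPKM) 98.6% of the lactate dehydrogenases, Pygm (106 ± 15 FPKM) 92.0% of the glycogen phosphorylases and Pkm all but a trace of its family. Eno3, muscle enolase, stood at 614, 563, 687 and 495 FPKM and Pgam2, the muscle mutase, at 71.3, 77.8, 117 and 78.4 FPKM. The common members Eno1 (124 ± 44.4 FPKM) and Pgam1 (8.08 ± 2.82 FPKM) were lower, but both have processed copies and are uncertain. Pfkm held 69.5% ± 5.65 of phosphofructokinase. Ckm, muscle creatine kinase, stood at 146, 353, 260 and 169 FPKM against 74.7, 50.4, 85.4 and 73.6 FPKM for brain Ckb, and the mitochondrial kinase of muscle, Ckmt2, had 1.49 ± 0.662 FPKM and was not called detected.

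Genes of glucose and fatty acid use were mixed. Slc2a1, the common glucose transporter, stood at 26.2, 26.7, 51.7 and 40.2 FPKM, and the insulin-responsive Slc2a4 at 0.873, 0, 2.19 and 1.01 FPKM. Hk1 and Hk2 could not be ordered, at 39.4 ± 14.3 and 33.8 ± 3.76 FPKM. Cpt1a, the liver form of the fatty acid gate, had 7.33 ± 0.792 FPKM and the muscle form Cpt1b 0.710 ± 0.144 FPKM. Myoglobin (Mb) was abundant at 320, 305, 521 and 460 FPKM, and Fabp3, the fatty acid carrier of muscle, had 25.3 ± 5.85 FPKM and held 82.6% ± 10.8 of its family. In the respiratory chain, the muscle forms Cox6a2 (114 ± 35.2 FPKM), Cox8b (62.3 ± 12.7 FPKM) and Cox7a1 (15.5 ± 4.62 FPKM) each had a lower mean than their common counterparts Cox6a1 (146 ± 33.8 FPKM), Cox8a (180 ± 32.7 FPKM) and Cox7a2 (112 ± 8.25 FPKM). Eef1a1 stood alone in its family, with the adult muscle form Eef1a2 at 0.0823 ± 0.0220 FPKM.

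Of the integrin genes, those of the laminin receptor subunits alpha 7 and beta 1 had the highest RNA levels. How strongly the cells were linked to the matrix was not measured. Itga7 stood at 391, 420, 389 and 331 FPKM (370 ± 34.3) and held 76.7% ± 1.67 of the integrin alpha subunits, and Itgb1 (486 ± 4.64 FPKM) held 80.8% ± 2.53 of the beta subunits. Utrn (utrophin) at 35.5, 39.4, 34.2 and 33.7 FPKM was above Dmd (dystrophin) at 7.14, 2.69, 4.88 and 5.02 FPKM in every library. Dag1, the dystroglycan gene, had 261 ± 47.0 FPKM. Of 21 genes of this complex 19 were detected, with a median of 25.9 FPKM, and Nos1, the muscle nitric oxide synthase, was not, at 0.689 FPKM. Among 21 collagens 14 were detected. Col3a1 stood at 291, 204, 619 and 475 FPKM and was lower in replicates 1 and 2, while Col5a2 (170 ± 11.8 FPKM) and Col12a1 (55.0 ± 1.12 FPKM) differed little between the deep libraries. The cadherins Cdh13 (124 ± 20.2 FPKM) and Cdh15 could not be ordered.

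The 34 pairs of an early or widely expressed member and a mature muscle member put these choices on a common scale. That scale was log2 of the ratio of FPKM with 0.1 added to each. The pairs were chosen with earlier results of these data known, so the counts depend on which pairs were picked. Of 33 pairs with an estimate, the mature member had the higher mean in 12 and the early member in 21. The deep libraries took the same side in 30 pairs, and all 4 libraries did so in 27. The mature member was at least 4 times higher in 6 pairs and the early member in 10, and 12 pairs lay within 2-fold. The largest ratios for mature members were Itga7 over Itga5 (log2 4.36 ± 0.07), Pygm over Pygb (3.54 ± 0.13) and Pgam2 over Pgam1 (3.47 ± 0.50). Pgam1 has processed copies, so the ratio to it is uncertain. At the other end were Eef1a2 against Eef1a1 (-13.44 ± 0.49), Chrne against Chrng (-6.65 ± 0.22), Myh2 against Myh3 (-5.0 ± 0.23) and Slc2a4 against Slc2a1 (-4.81 ± 0.35). Pairs that the deep libraries could not order were Myh4 with Myh8, Cox6a2 with Cox6a1, and Hk2 with Hk1. The pairs were not tested: a sign-flip permutation cannot go below an exact two-sided p of 0.25 with 3 libraries. The pairs share genes, such as Myh3, and are not independent of each other.

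**Figure D3:**
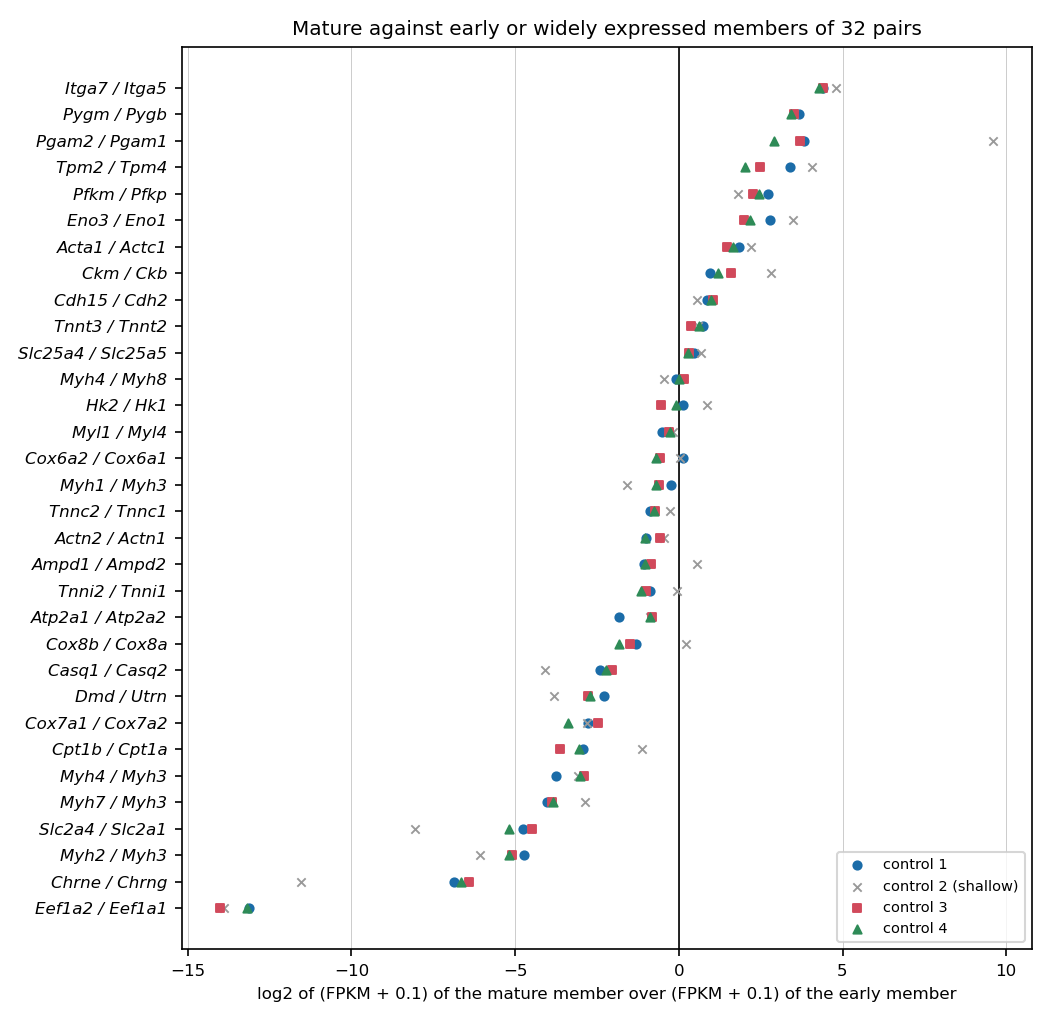
Log2 ratio of the mature over the early member for 32 of the 33 pairs with an estimate, with 1 point per control library; points right of the line have more of the mature member. Glycolytic and adhesion pairs lie mostly to the right, with the levels of Pgam1 and Eno1 uncertain because of processed copies. Receptor, glucose transporter and elongation factor pairs lie to the left, down to -13.44 for Eef1a2 against Eef1a1. The heavy chain pairs with Myh3 also lie to the left.

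Long non-coding RNAs held 3.40% of all FPKM and 204 of 7241 were detected. H19 led, followed by Malat1, a nuclear RNA, at 4966, 4426, 2368 and 2385 FPKM. Next came Gm26917 (2267 ± 212 FPKM, chr17:39843013-39846341), which lies beside an annotated ribosomal RNA gene that had no estimate. Gm10076 had 140 ± 23.3 FPKM. Cct6a, which overlaps Psph on the opposite strand, had 116 ± 4.15 FPKM. It is listed here only because the annotation labels this gene a processed transcript, and its coding status was not tested. Neat1, the scaffold of paraspeckles, stood at 113, 125, 49.1 and 36.4 FPKM. Malat1 and Neat1 were each higher in replicates 1 and 2 than in replicates 3 and 4. Lower still were 2410006H16Rik (49.1 FPKM), Gm28653 (44.6 FPKM), AI506816 (39.8 FPKM) and 1810058I24Rik (37.5 FPKM), and Xist, which coats the inactive X chromosome, had 26.3 ± 4.63 FPKM. The short structural RNAs Rmrp (9100 ± 1883 FPKM) and Rpph1 (6224 ± 2090 FPKM), parts of ribozymes, were above every coding gene, but the FPKM of very short transcripts rests on the length correction. By fragments instead, ribozymes held 0.302% against 3.96% by FPKM, processed pseudogenes 1.70% against 7.68%, and protein-coding genes 94.5% against 79.5%.

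Several of these transcripts hold the hairpins of muscle microRNAs, small RNAs that pair with messages through bases 2 to 8, the seed. Their mature sequences are shown, from RefSeq on GRCm38.p6, because the deposited values bear only on the host transcripts; mature microRNAs were not measured. Gm28653 on chromosome 1 (chr1:20669882-20684298), host of miR-206 and miR-133b, stood at 72.2, 78.6, 34.8 and 26.7 FPKM, in the same library order as Neat1 in the deep libraries. H19 holds miR-675. The heavy chain genes Myh7b, Myh6 and Myh7, at 4.47, 6.35 and 40.3 FPKM, hold miR-499, miR-208a and miR-208b. Seeds are in capitals, and miR-208a and miR-208b share theirs.
mmu-miR-206-3p: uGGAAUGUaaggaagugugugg
mmu-miR-133b-3p: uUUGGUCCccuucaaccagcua
mmu-miR-675-5p: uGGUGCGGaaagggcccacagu
mmu-miR-675-3p: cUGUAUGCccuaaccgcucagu
mmu-miR-499-5p: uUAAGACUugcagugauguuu
mmu-miR-208a-3p: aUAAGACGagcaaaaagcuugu
mmu-miR-208b-3p: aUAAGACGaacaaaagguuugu

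Imprinted genes, which are read from the copy of a single parent, ranged from the top of the transcriptome to none. Of 37 listed, 17 were detected and 10 had no fragment in the deep libraries. After H19 came Gnas, a G-protein gene, at 555 ± 66.6 FPKM, and Peg3, a zinc finger gene, at 62.7 ± 7.54 FPKM. Mest stood at 10.6, 3.46, 31.7 and 19.98 FPKM. The 6 listed genes of the Dlk1 to Dio3 domain on chromosome 12 (Dlk1, Meg3, Rtl1, Rian, Mirg and Dio3) had no fragment in any library. Cdkn1c, a cell cycle inhibitor with a role in muscle differentiation, was low at 4.54 ± 1.47 FPKM.

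Signals that set muscle size were uneven. Mstn (myostatin), the inhibitor of muscle growth, had no fragment in any library, while Fst (follistatin), which binds and neutralises it, stood at 181, 157, 170 and 157 FPKM (169 ± 12.2). The related ligand genes Gdf11 (15.2 ± 1.06 FPKM) and Inhba (7.39 ± 1.35 FPKM) were detected, and Inhbb stood at 28.4, 13.8, 10.5 and 9.55 FPKM. Of the insulin-like growth factor genes, Igfbp5 led at 204 ± 45.8 FPKM, Igfbp7 had 167 ± 15.8 FPKM, and Igf1 was low at 3.55 ± 0.875 FPKM beside Igf2. Secreted muscle factors such as Fgf21 (23.5 ± 9.14 FPKM), Fndc5 (14.6 ± 2.08 FPKM) and Gdf15 (2.25 ± 0.740 FPKM) were detected at rest, and Il6 was not, at 0.954 FPKM. Of 49 nuclear receptors 23 were detected, and Rarg (22.3 ± 5.06 FPKM) and Nr1h2 (22.2 ± 5.37 FPKM) could not be ordered at the top.

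Genes of body position showed a split between clusters. In the Hoxa cluster 6 of 11 genes were detected and in the Hoxc cluster 6 of 9, while none of 10 Hoxb and none of 9 Hoxd genes was. All 9 Hoxd genes and 7 of the Hoxb genes had no fragment in the deep libraries. Hoxa10 was highest at 17.2, 25.0, 18.9 and 15.7 FPKM, then Hoxc10 at 12.1, 21.3, 16.9 and 14.2 FPKM, Hoxa7 at 10.8 ± 1.44 FPKM and Hoxa9 at 9.48 ± 1.41 FPKM. Within the Hoxc cluster, Hoxc8 was low at 0.267 ± 0.0935 FPKM and lay between Hoxc6 (5.54 ± 1.05 FPKM) and Hoxc9 (5.65 ± 0.506 FPKM). Of limb factors, Tbx15 stood at 98.5, 74.4, 96.7 and 94.3 FPKM, with hardly any difference between the deep libraries, and Shox2 at 13.1 ± 1.92 FPKM. Tbx4, a hindlimb factor, was at 1.23 ± 0.238 FPKM, its partner Pitx1 had 1 fragment in the deep libraries, and the forelimb factor Tbx5 had none. Tbx1, a factor of head muscle, had 8.68 ± 1.33 FPKM.

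Markers of other cell types were mostly silent. Over 17 lineages 37 of 190 markers (19.5%) were detected, against 23.9% of all identifiers and 48.7% of protein-coding genes, and 80 had no fragment in the deep libraries. Most of the detected ones belonged to cardiomyocytes (6 of 16), smooth muscle (6 of 11) and fibroblasts (11 of 15), lineages that share genes with myotubes. Without these 3 lists 14 of 148 (9.46%) were detected and 73 had no fragment. None of the markers of hepatocytes, neurons, glia, blood and immune cells, pluripotent cells, germ cells, kidney or retina was called detected. The neuron genes Nefl (0.208, 3.94, 2.18 and 2.06 FPKM) and Gap43 (0.373, 2.96, 1.63 and 1.72 FPKM) and the macrophage gene Cd68 (0.750, 6.64, 1.39 and 0.873 FPKM) passed 1 FPKM in some deep libraries but not in all 3. The defining genes Alb, Rbfox3, Olig2, Ptprc, Pou5f1, Dazl, Umod and Crx had no fragment in the deep libraries.

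The shared lists showed which part was present. Of the cardiomyocyte markers, Actc1, Tnnt2 and Myl2 were abundant, whereas Nkx2-5 (0.413 ± 0.105 FPKM) was below detection and Tbx20, Hand1, Hand2, Myl7 and Pln had no fragment. Gata4, a heart factor, was at 3.12, 2.44, 3.50 and 3.03 FPKM. Of smooth muscle, Acta2 was abundant and Cald1 (111 ± 1.79 FPKM), Tagln (89.8 ± 27 FPKM) and Smtn (36.9 ± 10.1 FPKM) were present, but the master regulator Myocd (0.00714 FPKM) and the myosin Myh11 (0.0225 FPKM) were near 0. Of fibroblast genes, Vim, Fn1 (534 ± 95.2 FPKM) and Col3a1 were high, Pdgfra was at 1.18 ± 0.0479 FPKM, and Thy1 (0.0443 FPKM), Lum (0.0364 FPKM) and Tcf21 (no fragment) were at or near 0.

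A few markers stood apart within lists that were mostly below detection. Scx (scleraxis), the tendon factor, stood at 130, 121, 122 and 111 FPKM, while the tendon gene Tnmd (0.0194 FPKM) and the factor Mkx (0.0720 FPKM) were near 0. Spp1 (osteopontin) stood at 321, 286, 823 and 831 FPKM, higher in replicates 3 and 4, and the bone genes Bglap and Ibsp had no fragment. In the bone list 3 of 10 markers were detected, and Spp1 held 99.1% of the summed FPKM. Ctrb1, a pancreatic protease precursor, stood at 39.0, 6.8, 27.3 and 16 FPKM on 591, 1, 232 and 285 fragments, beside Cela1, an elastase, at 4.81 ± 0.123 FPKM and Ins2 at 2.63 ± 0.696 FPKM. The pancreatic factor Pdx1 and the genes Ins1, Gcg and Amy2b had no fragment. Sox9, the cartilage factor, had 10.0 ± 2.56 FPKM, and its target Acan had none. Krt19, an epithelial keratin, had 5.87 ± 1.86 FPKM, while Krt8 was near 0 at 0.0283 FPKM and Krt18 and Krt5 had no fragment. In the epithelial list 3 of 12 markers were detected, among them Cdh1 at 1.19 ± 0.184 FPKM. Egfl7 (1.66 ± 0.332 FPKM), which is the host of miR-126, was the 1 endothelial marker detected. Cebpa (3.85 ± 0.915 FPKM) and Pparg (2.49 ± 0.836 FPKM) were the detected adipocyte markers.

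**Figure D4:**
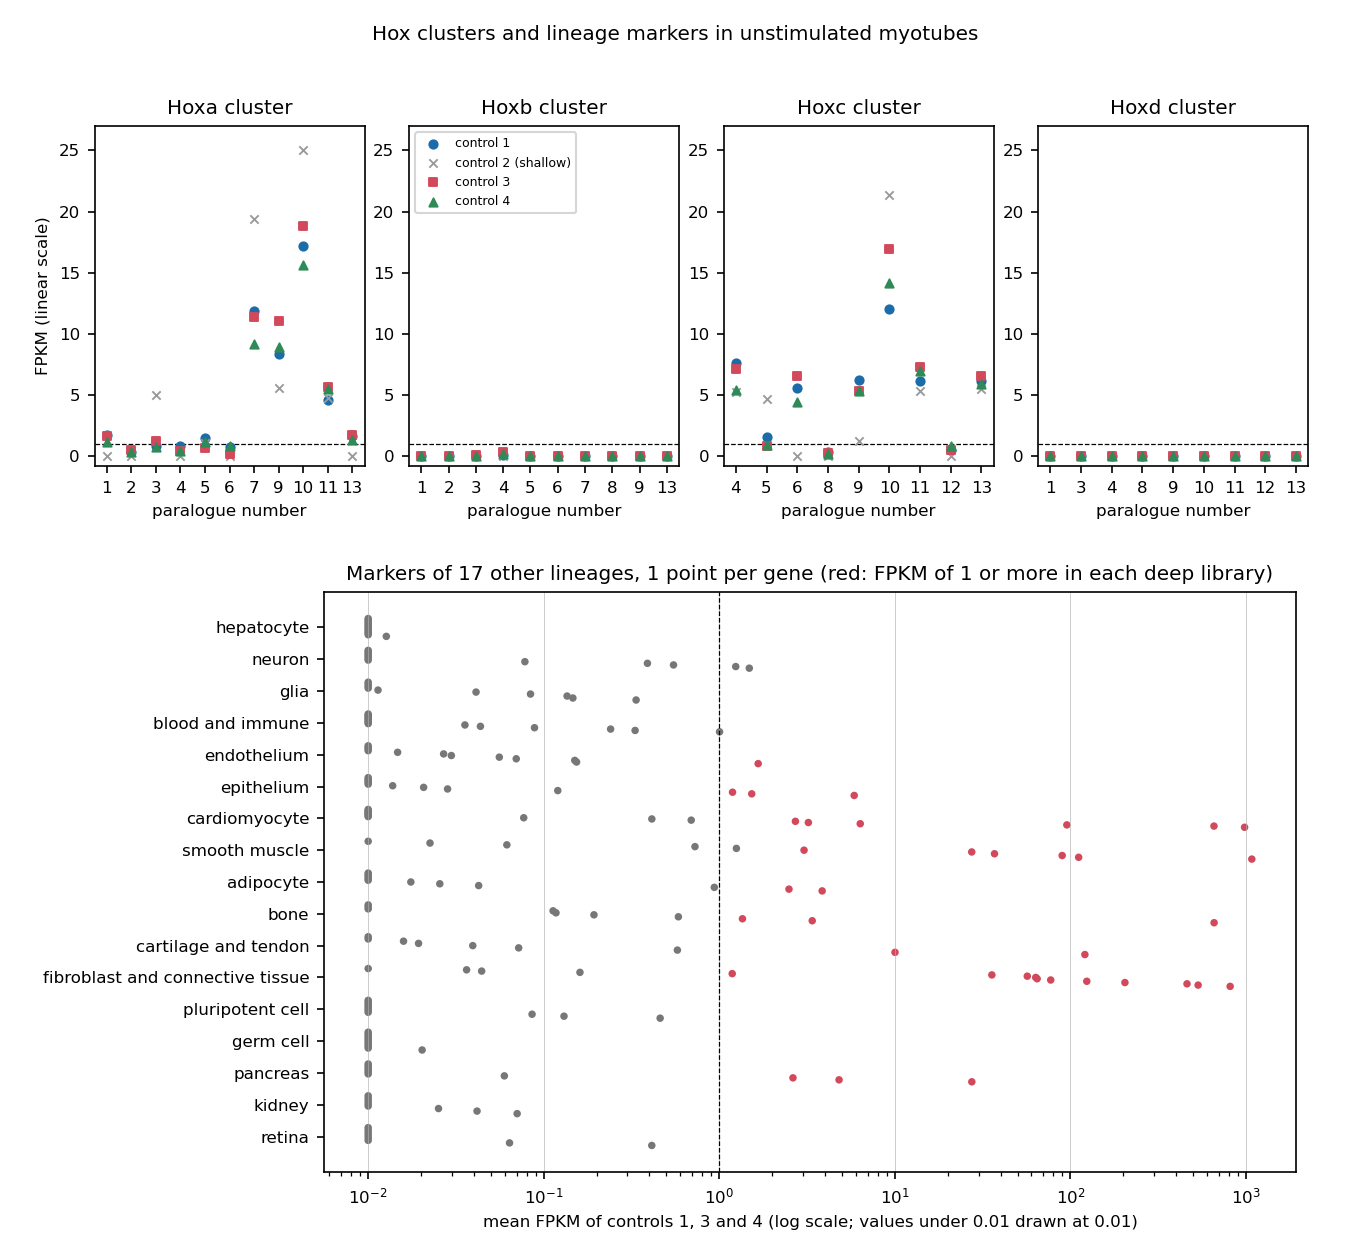
Top, FPKM (linear axes) of the genes of the 4 Hox clusters by paralogue number, with 1 point per control library. Bottom, mean FPKM of the deep libraries (log axis) for the markers of 17 other lineages, with 1 point per gene, detected genes in red and the dashed line at 1 FPKM; the cardiomyocyte, smooth muscle, fibroblast, bone, and cartilage and tendon lists are those with a point above 100 FPKM.

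Some muscle genes have no level here. In 40 genes, of which 14 are protein-coding, the authors' software skipped the estimate because of too many fragments in the locus. They include Ttn, the giant spring of the sarcomere, and 14 neighbouring genes in a single stretch of chromosome 17 with Myom1, Myl12a and Myl12b. The non-coding RNA gene Rn7sk had none either. The FPKM of another 9 genes, among them Ryr1 and the fusion gene Myof, was marked as failed in 1 or more control libraries. Of 37 mitochondrial genes listed, 1 had a fragment, so the transcripts of the mitochondrial genome are outside these values.

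The deep libraries differed by more than counting error. The biological coefficient of variation from fragment counts was 0.159 over 13190 genes (edgeR 4.0.16, common dispersion). Over 5795 coding and long non-coding genes with 10 FPKM or more, the highest deep library exceeded the lowest by a median of 1.24-fold. In 154 of them (2.66%) the log2 range was above 1. Replicate 1 was the lowest library in 133 of those 154 genes. Without replicate 1 the coefficient of variation was 0.103.

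The genes with the widest ranges were few in kind. The 10 widest were Car9 (7.55-fold), 8 histone genes and Cd34 (4.49-fold). Car9, a carbonic anhydrase induced by low oxygen, stood at 3.91, 0, 30.2 and 19.3 FPKM, and Cd34, a surface protein of progenitors, at 6.13, 8.84, 27.9 and 24.8 FPKM. The histone gene Hist2h2bb stood at 59.9, 76.8, 149 and 257 FPKM, Hist1h4j ranged over 6.47-fold, Hist1h3g over 5.53-fold and Hist1h1a over 4.25-fold. The others were Hist1h3a (5.26-fold), Hist1h2bn (5.10-fold), Hist1h2bl (4.89-fold) and Hist1h3f (4.75-fold). Of 42 histone genes with 10 FPKM or more, 35 had a log2 range above 1, and all 35 were highest in replicate 4 and lowest in replicate 1 among the deep libraries. The summed cell division genes were 247, 302, 287 and 414 FPKM. Their part in the histone difference was not tested.

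Other groups, chosen after these values were seen, also varied between the libraries. The 10 low-oxygen targets Car9, Ndrg1, Bnip3, Ankrd37, Egln3, Pdk1, Vegfa, Slc2a1, Ldha and Pgk1 summed to 583, 427, 1200 and 948 FPKM. All 10 were highest in replicate 3 among the deep libraries. The summed FPKM of all genes was also highest there, at 372777, 405006, 430041 and 376429 in replicates 1 to 4. Of the 154 genes with a log2 range above 1, 70 were highest in replicate 3. The share over all genes was not counted. The 4 metallothioneins, metal-binding proteins, summed to 505, 545, 1429 and 545 FPKM, with Mt1 at 385, 513, 1064 and 406 FPKM. Of 5 long non-coding RNAs, Malat1, Neat1, Xist and Gm28653 were highest in replicate 1 among the deep libraries. Tug1, the fifth, stood at 21.6, 30.8, 23.3 and 22.9 FPKM and was lowest in replicate 1. Where in the cell these 5 RNAs lie was not measured. Their sum of 5204, 4716, 2498 and 2495 FPKM was mostly Malat1. The contractile list summed to 27800, 29017, 27859 and 22558 FPKM, a narrower range. Gene length also moved with the libraries: across 5753 coding genes, the deviation of log2 FPKM correlated with log2 exon length at 0.29 in replicate 1, -0.28 in replicate 3 and -0.11 in replicate 4. Its part in these differences was not tested.

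**Figure D5:**
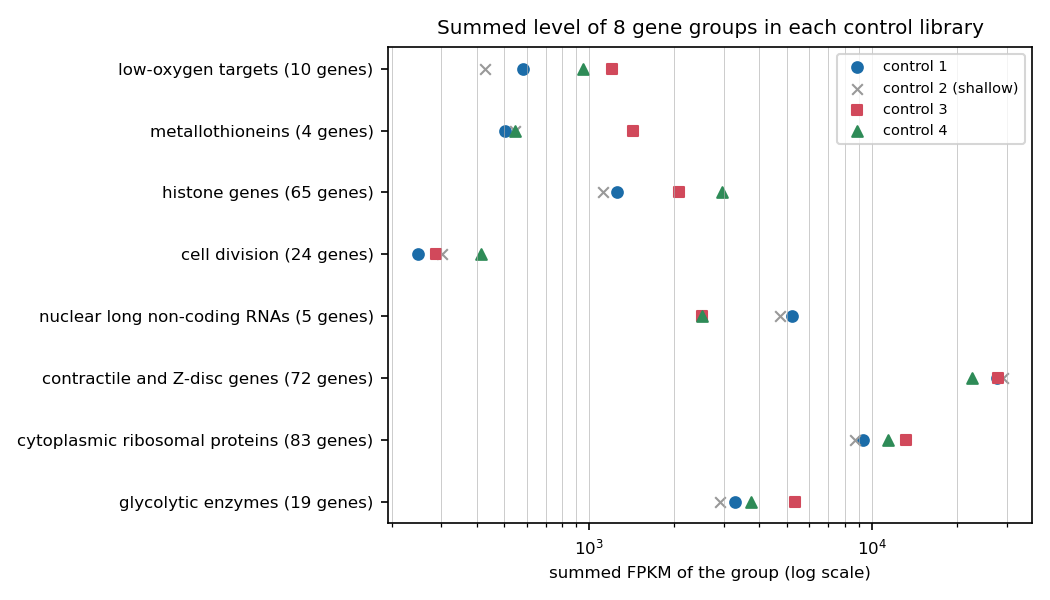
Summed FPKM (log axis) of 8 gene groups in each control library. Low-oxygen targets, histones and the long non-coding RNAs labelled nuclear (mostly Malat1) separate replicates 1 and 2 from replicates 3 and 4. That label was not tested for each RNA. Metallothioneins are highest in replicate 3, and contractile genes lie within 22558 to 29017 FPKM.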

How the data were processed

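Total RNA was made into stranded libraries, per the labels' protocols. Build mm10, Cuffdiff 2.2.1, Cufflinks and STAR 2.5.1 are listed in the submitters' processing notes. The sources used here do not give the annotation release, the strand setting or the treatment of multiply mapped reads, so genes that overlap on opposite strands (such as Myh1 and Myh7 with antisense RNAs) may share reads. Per the file headers, the deposited table holds Cuffdiff's estimated counts (fragments per gene and library, not scaled) and FPKM, the authors' values after scaling between libraries. It was used as deposited: 48432 identifiers, of which 48051 matched a symbol and position in GENCODE (same build) on the identifier without its version. Of estimated counts above 0, 93.6% were whole; all were rounded for edgeR.

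Genes marked as skipped (40) were left out. Libraries of 1 group are described, with no test between groups. Pair ratios used a pseudocount of 0.1. The spread was edgeR 4.0.16's common dispersion (R 4.3.3, TMM, intercept only); on simulated counts the estimate was checked against known values. Other steps used Python 3.11.15 with pandas 2.3.3. No 2 libraries agreed within sampling noise (chi-square per degree of freedom 6.78 to 42.3). Alternatives were other libraries, thresholds, pseudocounts, length scaling and size factors (DESeq2 1.42.0).

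Gene lists (96, with 865 of 870 gene names matched) and pairs were chosen with earlier results of these data known. Genes named are the 6 markers, the 30 most abundant coding genes and 10 most abundant long non-coding RNAs, the first and next member of each family with pair members, list members, each lineage's highest member and defining genes at 0, the 10 widest ranges, and genes with no estimate; a few of these genes are not reported here.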

Additional observations from a re-analysis of the deposited data

Results flagged for a closer look

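Each of 41 values was checked for a library far from the other 3, by the gap to the nearest library over the whole range against a critical value of 0.829. Chance passes about 1 in 20 such groups, and 4 of the 41 passed. The first 3 were counts of genes in control replicate 2, the library of 0.354 M fragments. It had 11203 genes with an FPKM of 1 or more, against 12087, 12155 and 12012 in replicates 1, 3 and 4. It had 10162 such protein-coding genes, against 10787, 10894 and 10789. It had 11812 genes with any fragment, against 18603, 17482 and 18525. The fourth was Aldoa, which stood at 1258 FPKM in replicate 3, against 719, 732 and 779 FPKM in replicates 1, 2 and 4. The low-oxygen targets and the summed FPKM of all genes were also highest in replicate 3 among the deep libraries. Their part in the level of Aldoa was not tested.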

How the results depend on the processing

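The count of detected genes was 5708 at an FPKM of 10 or more. The count of lineage markers was 56 at an FPKM of 0.1 or more and 21 at 10 or more. The share of the 100 most abundant coding genes was 21.1% by fragment counts. Leaving out each deep replicate in turn gave 11690 to 11769 detected genes, 37 to 39 lineage markers, 21.9 to 22.6% for that share, 12 pairs with a higher mature member in each case, and a coefficient of variation of 0.103 to 0.193, lowest without replicate 1. The other alternatives stayed within 1.5 times or within 1 SD of the values reported. Among the pairs, Myh4 and Myh8, and Hk2 and Hk1, changed order without replicate 3 and with all 4 libraries. With fragments per annotated exon length 16 of 34 pairs had the higher mature member, and Tnni2, Myl1 and Hk2 changed side. Depth limits replicate 2, where a gene needs 8.46 per M fragments to reach 3 fragments, and 3 libraries limit every SD. No paired analysis was possible because the libraries form 1 group and the results come from no test.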

Other observations

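The S100 and galectin families were concentrated in few members. S100a4 held 49.6% ± 2.22 of the S100 FPKM, S100a6 had 566 FPKM and S100a11 341 FPKM, while the white cell genes S100a8 and S100a9 had no fragment in the deep libraries. Lgals1 held 88.3% ± 1.35 of the galectins, with Lgals3 at 255 FPKM. Among 12 annexins, membrane-binding proteins, 9 were detected, and Anxa6 (221 FPKM) and Anxa2 (218 FPKM) could not be ordered. Of 19 SOX factors 5 were detected: Sox11 stood at 45.7, 41.2, 34.9 and 47.0 FPKM and Sox4 at 30.6, 25.1, 38.2 and 35.3 FPKM, whereas Sox5 (0.0638 FPKM) and Sox6 (0.0423 FPKM) were below detection. Of 13 carbonic anhydrases 5 were detected, and Car3, the muscle form, at 17.2, 20.2, 63.6 and 41.6 FPKM could not be ordered against Car13 at 18.4, 16.8, 30.5 and 25.4 FPKM.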
